A study of Mus musculus with 2 samples.

Results

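The genes described here are those that write, copy, remove and protect DNA methylation: the maintenance factors Dnmt1 and Uhrf1, the de novo methyltransferases Dnmt3a and Dnmt3b with their cofactor Dnmt3l, the dioxygenases Tet1, Tet2 and Tet3, and the imprint protectors Zfp57 and Trim28. These 10 of the 21938 protein-coding genes of GENCODE M21 were chosen by name, and each was taken from 5 kb upstream of its first annotated start to its end on GRCm38. Together their spans held 1636 of the 1782730 cytosines of the methylation table. DNA methylation was measured by reduced representation bisulfite sequencing (RRBS), which cuts DNA at CCGG and reads the ends of the short fragments, so that it samples CpG-rich stretches densely and the rest of the genome sparsely. The cells were mouse embryonic stem cells (mESCs) of the Xmas line, female and of strain C57/Bl6, kept in the modified 2i/LIF culture of the study for 7 passages according to the labels. The study's text gives a different passage number for these cells, and which of them holds is not known here. Xmas cells carry an mCherry and a GFP reporter under the Hprt promoter, 1 on each X chromosome, and the cells were sorted by flow cytometry into XX and XO populations on these reporters. The karyotype therefore rests on reporter fluorescence. There was 1 XX library and 1 XO library, with no replicates, so no comparison below was tested and every difference is one between these 2 libraries. The table holds methylation percentages only, so neither the read depth nor the cell type labels could be checked against it.

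CpG methylation is copied at replication when Uhrf1 recognises the half-methylated daughter strands and brings Dnmt1 to them. New methylation is set by Dnmt3a and Dnmt3b, which Dnmt3l, itself without catalytic activity, stimulates. The Tet enzymes oxidise 5-methylcytosine to 5-hydroxymethylcytosine and beyond, which leads to its loss by dilution or by base excision repair. Zfp57 binds methylated imprinting control regions and recruits Trim28 (KAP1), which shields them from the genome-wide loss of methylation in early embryos and in naive stem cells. Bisulfite sequencing reads 5-methylcytosine and 5-hydroxymethylcytosine alike. The values below are the methylation of the genes for these proteins, not their expression or activity.

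The stretches that carry the patterns described below are shown first, each on the strand of its gene in GRCm38, 5′ to 3′, with the CpGs that the table lists in capitals. The first lies just upstream of the internal start of Dnmt3a that gives its short isoform (chr12:3891341-3891640, forward strand, in an intron of the long isoform), where the methylated CpGs at its left end and the nearly unmethylated ones at its right end stand side by side.
Dnmt3a, upstream of the variant 2 start: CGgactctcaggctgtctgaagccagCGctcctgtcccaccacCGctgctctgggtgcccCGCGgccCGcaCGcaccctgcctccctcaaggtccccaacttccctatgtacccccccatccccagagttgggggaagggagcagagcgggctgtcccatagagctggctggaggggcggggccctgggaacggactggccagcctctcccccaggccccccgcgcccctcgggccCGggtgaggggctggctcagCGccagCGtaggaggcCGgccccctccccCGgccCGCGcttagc
The second is the stretch just upstream of the second start of Uhrf1 (chr17:56304013-56304312, forward strand, in an intron), shown because it was methylated in part in both libraries.
Uhrf1, upstream of the variant 2 start: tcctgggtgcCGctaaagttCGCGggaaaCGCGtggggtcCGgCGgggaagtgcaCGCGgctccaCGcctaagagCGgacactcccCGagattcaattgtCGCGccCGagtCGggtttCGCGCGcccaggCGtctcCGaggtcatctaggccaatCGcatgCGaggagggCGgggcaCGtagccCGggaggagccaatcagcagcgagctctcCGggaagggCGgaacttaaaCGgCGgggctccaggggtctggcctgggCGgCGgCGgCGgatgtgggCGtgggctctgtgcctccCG
The third is the stretch with the lowest XX minus XO difference among the runs of at least 5 listed CpGs in these genes (a run being CpGs within 100 bp of each other), in a coding exon of Tet3 (chr6:83402868-83403148, reverse strand).
Tet3, coding exon: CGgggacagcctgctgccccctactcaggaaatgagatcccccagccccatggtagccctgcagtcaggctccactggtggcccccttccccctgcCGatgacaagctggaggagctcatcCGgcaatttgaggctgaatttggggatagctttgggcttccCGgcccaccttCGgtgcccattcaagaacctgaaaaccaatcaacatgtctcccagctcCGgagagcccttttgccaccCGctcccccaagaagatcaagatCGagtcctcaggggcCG
The last holds every CpG listed in the body of Dnmt3l, in a coding exon (chr10:78057291-78057434, forward strand).
Dnmt3l, coding exon: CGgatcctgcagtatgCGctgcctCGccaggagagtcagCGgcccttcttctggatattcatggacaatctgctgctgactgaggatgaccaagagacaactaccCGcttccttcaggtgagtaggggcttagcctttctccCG

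GENCODE gave these genes 92 distinct transcription starts. Windows of 1 kb on either side of each start, joined where those of a gene overlapped, made 39 start regions. Of these, 17 held at least 5 listed CpG cytosines and are compared below, 5 held 1 to 4, and 17 held none. By single starts, 50 had at least 5 listed CpGs, 5 had 1 to 4 and 37 had none. The starts without a listed CpG had a median of 1 CCGG site in their window, against 10 at those with at least 5. Dnmt3l had no listed CpG at any of its 3 start regions, which held 4, 4 and 0 CCGG sites, so its starts were not measured here. Outside the start regions the bodies of the genes held 525 listed CpGs and the flanks upstream of them 28. The 2 strands of a CpG are listed separately. Both strands were read at 428 CpGs of these genes. Their strands differed by a median of 2.95 points (percentage points of methylation) in XX and 2.89 in XO, and the SD of the strand difference was 11.4 points in XX and 12.9 in XO. Neighbouring cytosines were not independent readings either, as 45.4% of same-strand neighbours within 100 bp had identical values in both libraries (34.8% over the whole table). Differences of a few points, and those carried by 1 strand, are therefore given as values only.

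**Figure D1:**
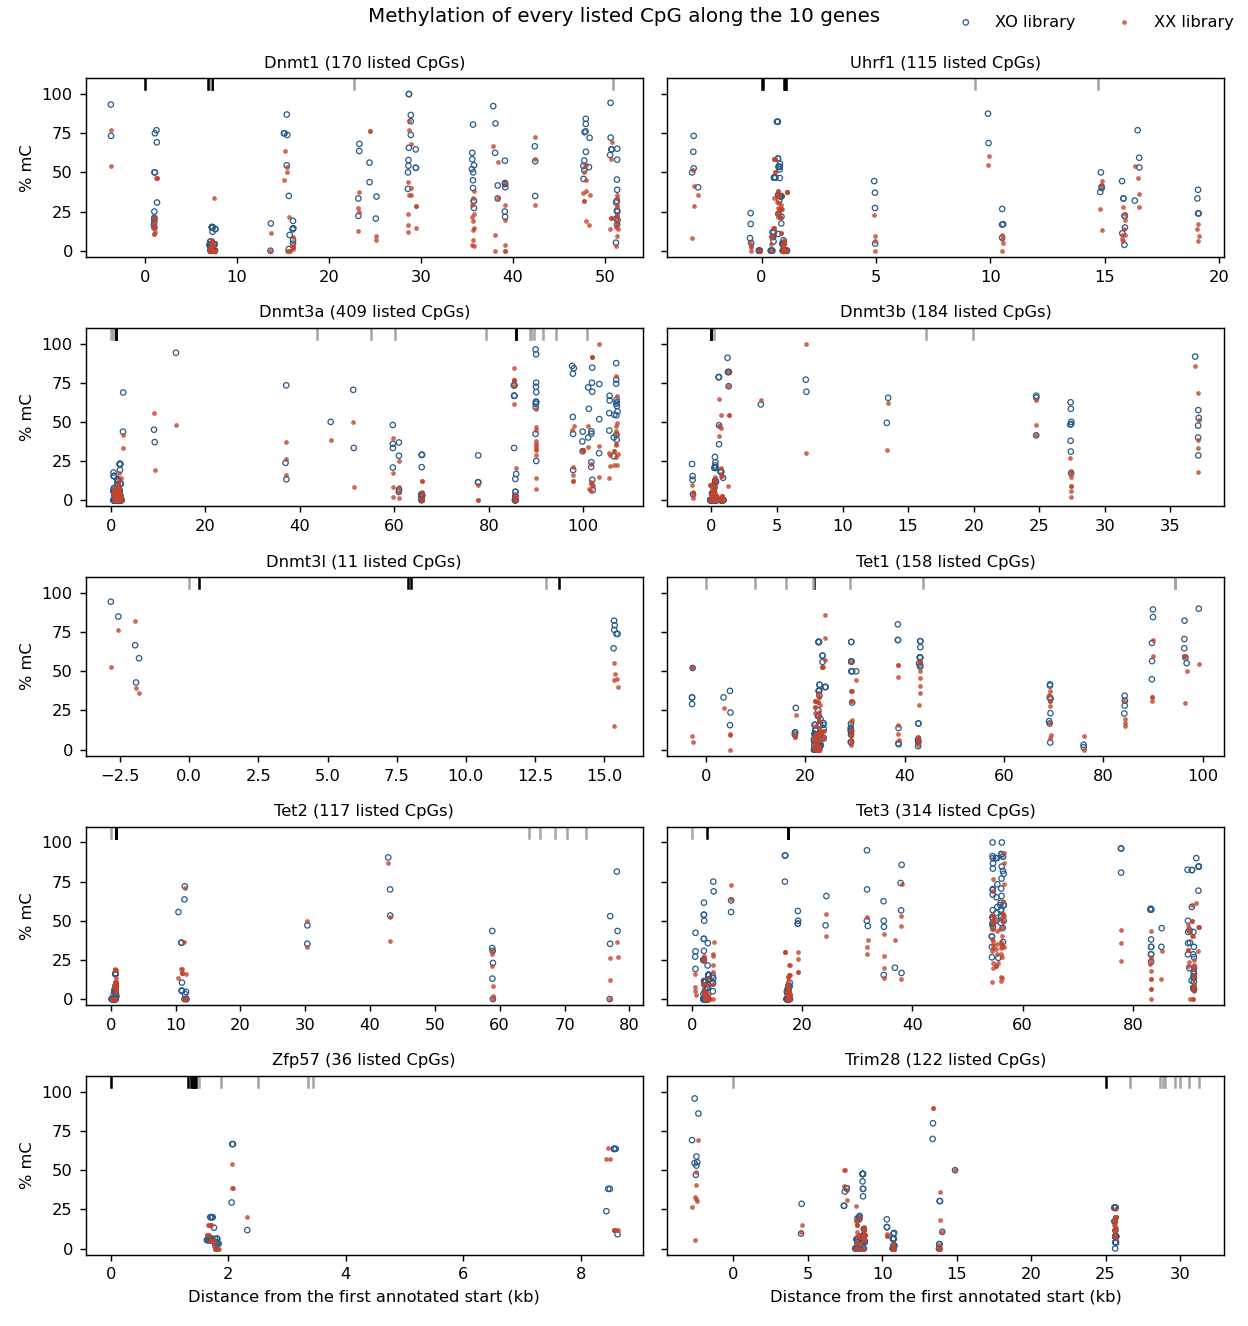
Methylation (% mC, y axis) of every listed CpG cytosine along each of the 10 genes, against the distance in kb from the first annotated start in the direction of transcription (x axis), for the XX library (filled red) and the XO library (open blue). Ticks at the top mark annotated starts, black where RefSeq also has an mRNA start and grey where it has none. Most of the dense clusters of CpGs near 0% lie at black ticks, and the CpGs further along the genes spread from 0% to 100%, with the XO library mostly above the XX library.

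The start regions were divided by whether RefSeq also places an mRNA start there, to within 100 bp, a division chosen after the values were seen. At the 11 measured start regions with a RefSeq start, methylation was low in both libraries, with a median of 5.42% in XX and 8.15% in XO, and the differences ran from -4.88 to 3.36 points with a median of -0.872. XX was lower at 7 of them and higher at 4 (over start regions of all kinds and all genes, XX was lower at 70.9%), and 0 of the 11 differed by 10 points or more in either direction. Among all protein-coding genes, 10.1% of 13750 such regions were at least 10 points lower in XX and 1.64% at least 10 points higher, with a median difference of -1.42 points. The 6 measured regions without a RefSeq start had medians of 23.8% (XX) and 42.2% (XO), and XX was lower at all 6, by at least 10 points at 5. The background is high here, as 48.1% of the 4891 such regions of all genes were at least 10 points lower in XX, and 1.72% at least 10 points higher, with a median of -9.09 points. The upper quartile of their differences was -1.65 points, so XX was lower by some amount at most of them as well. Taking all 17 regions, 5 were at least 10 points lower in XX and 0 were at least 10 points higher, beside 20.1% and 1.66% of the start regions of all genes. The median difference over the 17 was -2.75 points, and over the 18641 regions of all genes -2.18 points. Of the 17 regions, 11 had the same sign of difference on both strands. The share over all genes is not given here.

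**Figure D2:**
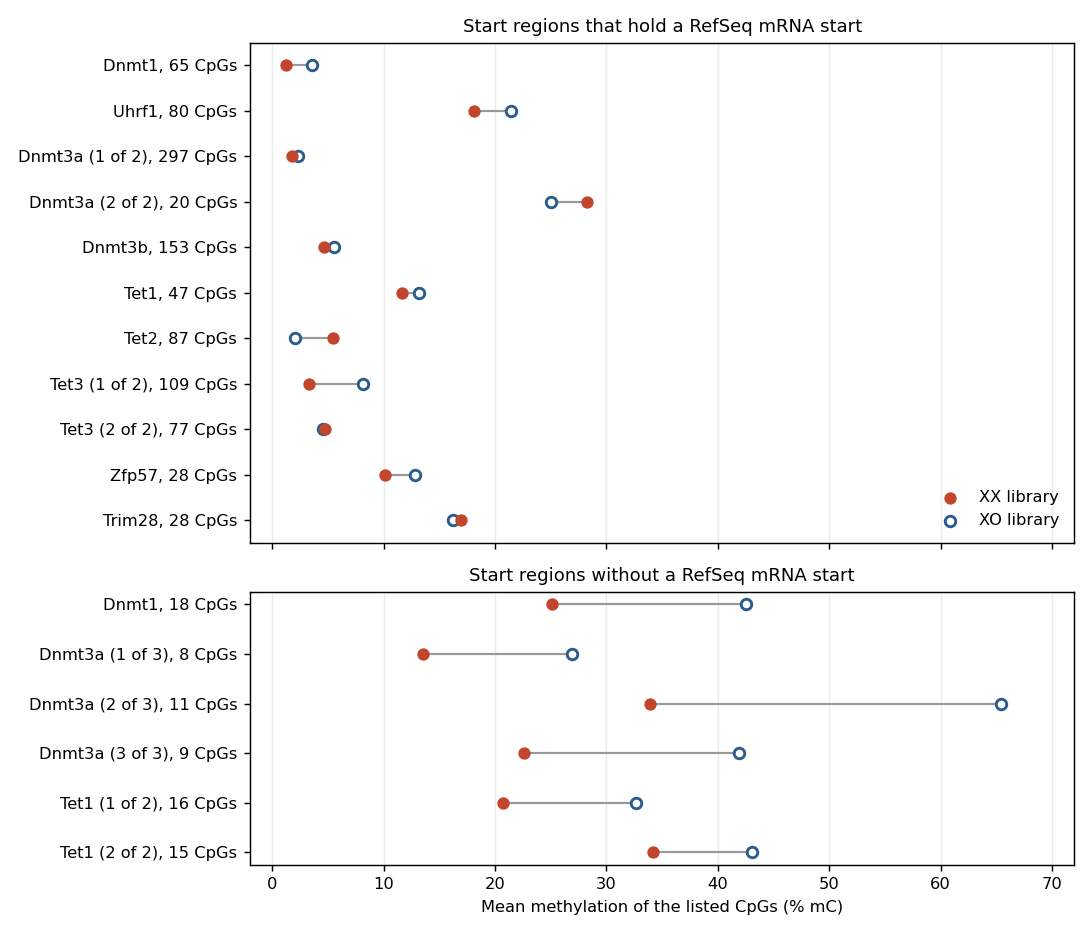
Mean methylation (% mC, x axis) of the 17 start regions with at least 5 listed CpGs, for the XX library (filled red) and the XO library (open blue), with the number of CpG cytosines beside each gene. A number in brackets counts the regions of a gene within the panel in the direction of transcription. The 11 regions with a RefSeq start (top) lie below 30% with the libraries close together, and at the 6 without one (bottom) the XX library is the lower one throughout. Over all genes, XX was also lower at most regions without a RefSeq start.

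Of the maintenance factors, Dnmt1 (chr9:20907209-20959888, reverse strand) was nearly unmethylated at its main start. The region around the starts of RefSeq variants 1, 2, 4 and 5 (chr9:20951605-20953979) had 65 listed CpGs with a mean of 1.22% in XX and 3.59% in XO. By strand, the difference of -2.37 points was -3.21 (forward) and -1.60 (reverse). Further upstream, the start of variant 3 at position 20959888 had 1 listed CpG, at 10.7% in XX and 16.7% in XO. An annotated start near the end of the gene, at position 20908979, belongs to a transcript with a retained intron and has no RefSeq counterpart. Its region had 18 CpGs, at 25.1% in XX and 42.5% in XO, a difference of -17.4 points that was -28.0 on the reverse strand and -4.26 on the forward strand. This start lies in the coding exons of the gene. A start within the gene at position 20937189, also of a retained-intron transcript, had 4 CpGs at 25.6% and 46.8%.

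Uhrf1 (chr17:56303321-56323486, forward strand), which brings Dnmt1 to replicated DNA, was methylated in part around its starts in both libraries. The joined region of its RefSeq starts (chr17:56302321-56305407) had 80 CpGs with a mean of 18.1% in XX and 21.4% in XO, a difference of -3.25 points (-4.08 forward, -2.43 reverse). The median over its CpGs instead of the mean gave 4.09 points, so the direction at this start depended on the summary. Read in steps of 100 bp from the first start, a division made after the values were seen, the region was not even. The 6 CpGs from -200 bp to the start were at 0% in both libraries. The 9 CpGs from 500 to 600 bp averaged 43.9% in XX and 38.3% in XO. From 600 to 700 bp, 4 CpGs averaged 35.7% in XX and 76.5% in XO, and from 700 to 800 bp, 17 CpGs averaged 28.0% and 42.5%. The 16 CpGs from 900 to 1000 bp, which run up to the second start at 56304313, were at 2.67% and 2.08%, and the last 6, from 1000 to 1100 bp, at 25.0% and 0%. Methylated and unmethylated CpGs thus alternated within a short stretch, and the library with the higher value changed along the stretch and with the strand. All 4 CpGs from 600 to 700 bp were on the reverse strand, and most from 500 to 600 bp on the forward strand. From 900 to 1000 bp, XX was higher at the reverse-strand CpGs and not at the forward ones. The XX values above 0% from 1000 to 1100 bp were all 37.5%, on the reverse strand. Position and strand are therefore partly mixed in these steps. In the 300 bp shown above, which end at that second start, 44 cytosines averaged 18.0% in XX and 27.3% in XO, with XX lower at 32 and higher at 12. The difference there was -9.30 points and had the same sign on both strands (-10.9 forward, -7.98 reverse). The starts of 2 retained-intron transcripts within Uhrf1 had 2 CpGs at 57.6% in XX and 78.1% in XO, and 4 CpGs at 31.4% and 42.1%.

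**Figure D3:**
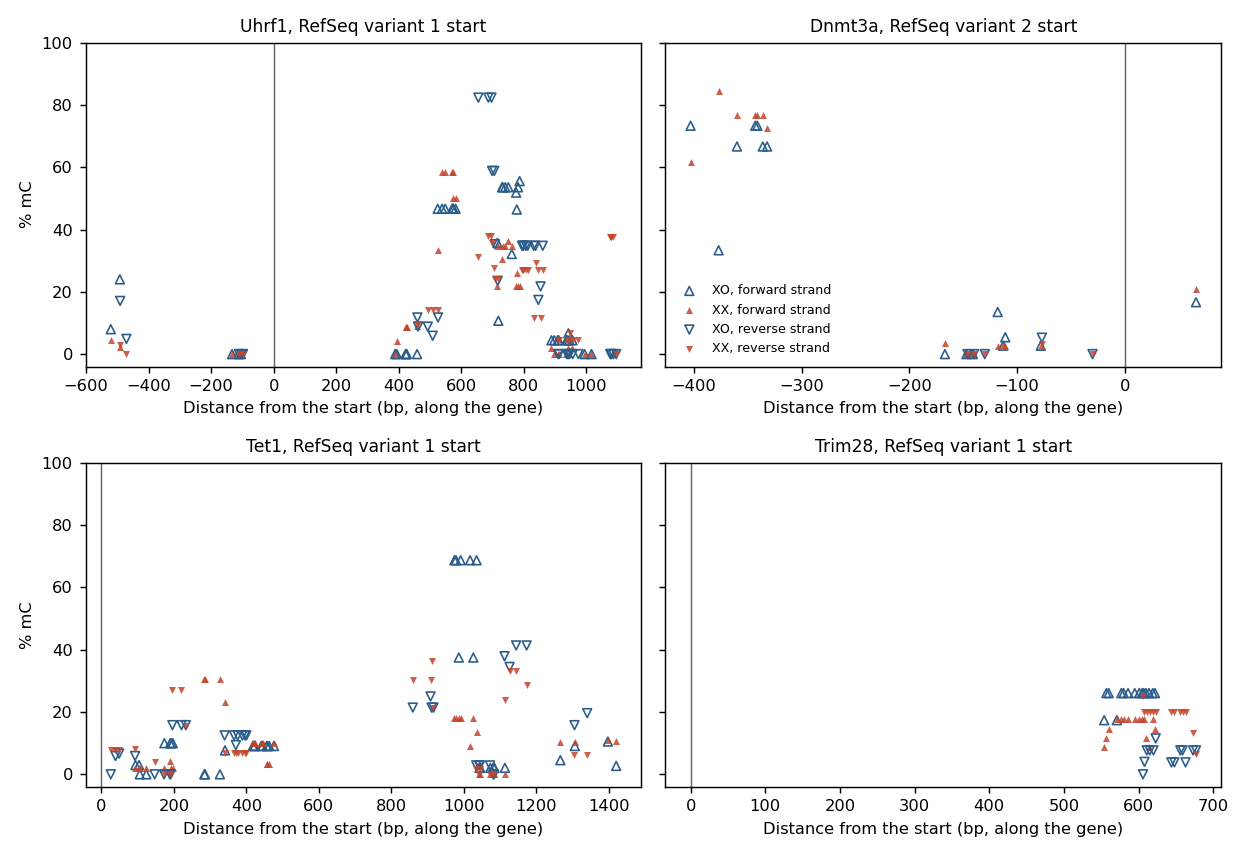
Methylation (% mC, y axis) of single CpG cytosines against the distance in bp from a RefSeq start along the gene (x axis, start at 0) for Uhrf1, Dnmt3a, Tet1 and Trim28. Red filled triangles are the XX library and blue open triangles the XO library, pointing up for the forward strand and down for the reverse strand. Uhrf1 and Tet1 have CpGs near 0% beside CpGs above 60% in XO, the Dnmt3a CpGs fall into a methylated and an unmethylated group, and at Trim28 XX is below XO at nearly every CpG of the forward strand and above it at nearly every CpG of the reverse strand.

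Dnmt3a (chr12:3806007-3914443, forward strand) had the most starts and the most listed CpGs of the de novo enzymes. Its first region (chr12:3805007-3808160), with the starts of variants 1 and 3, variant 1 giving the long isoform, had 297 CpGs at 1.75% in XX and 2.29% in XO, the difference being 0.584 points on the forward and -1.58 on the reverse strand. The internal RefSeq start of variant 2, which gives the short isoform known from mESCs, differed from it in level (chr12:3890728-3892744). Its 20 CpGs averaged 28.2% in XX and 25.0% in XO. They fell into 2 runs. The run of 7 CpGs at chr12:3891341-3891412 averaged 75.2% in XX and 64.8% in XO, its middle 352 bp upstream of the start at 3891728, while the run of 13 CpGs that spans the start (chr12:3891577-3891810) averaged 2.95% and 3.56%. Counted from the variant 2 start that GENCODE places at 3891744, the CpGs from 167 to 30 bp upstream were at 0% to 3.45% in XX and 0% to 13.5% in XO, and the single CpG listed downstream, at 66 bp, was at 20.8% in XX and 16.7% in XO. The difference of 10.5 points in the upstream run was the one rise of 10 points or more among the runs of at least 5 CpGs in these genes. It was carried mostly by the cytosine at 3891367, at 84.6% in XX and 33.3% in XO. The cytosine at 3891341 was lower in XX, at 61.5% and 73.3%. The rest were at 72.7% to 76.9% in XX and 66.7% to 73.3% in XO. All 7 cytosines of the run were on the forward strand, so no reading of the other strand stands beside it. Over the whole region the mean difference was 3.26 points and the difference of the medians over CpGs was -2.38.

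The other measured starts of Dnmt3a have no RefSeq counterpart and were lower in XX. The region at 3866191 had 8 CpGs at 13.5% in XX and 26.9% in XO. The joined region from 3893824 to 3898420 had 11 CpGs in a coding exon at 33.9% in XX and 65.4% in XO, and its difference of -31.5 points, the lowest of all 17 measured start regions, was -30.5 on the forward and -32.0 on the reverse strand. The region at 3906816 had 9 CpGs at 22.6% and 41.9%, 8 of them on the forward strand. At 4 further start regions of Dnmt3a no CpG was listed.

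Dnmt3b (chr2:153649450-153687730, forward strand) had a single measured start region, at chr2:153648450-153650617, which holds the starts of all its RefSeq variants. Its 153 CpGs averaged 4.69% in XX and 5.56% in XO, a difference of -0.872 points, and 75 of them were at 0% in both libraries. Its 2 internal start regions had no listed CpG. Dnmt3b has a tandem copy downstream, Dnmt3c, in whose body and start region no CpG was listed, and whether reads from stretches that the copies share were placed rightly was not tested. Of Dnmt3l (chr10:78041947-78063622, forward strand), the cofactor, the body and an upstream flank could be measured, but no start.

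The Tet genes were also low at their RefSeq starts. Tet1 (chr10:62804570-62908996, reverse strand), the main 5-methylcytosine oxidase of mESCs together with Tet2, begins in GENCODE with an upstream start that RefSeq lacks, and its RefSeq start lies at 62887324. The region there (chr10:62886324-62888512) had 47 CpGs at 11.7% in XX and 13.2% in XO, -4.08 points on the forward and 1.42 on the reverse strand. It was uneven along its length like that of Uhrf1. The 5 CpGs in the first 100 bp after the start averaged 6.64% in XX and 4.28% in XO and the next 12 averaged 3.99% and 4.90%. From 200 to 300 bp, 4 CpGs averaged 26.0% in XX and 7.89% in XO. Those on the forward strand were at 30.8% and 0%. On the reverse strand, the CpG at 233 bp was at 15.4% and 15.8% and the one at 221 bp at 26.9% and 15.8%. Further in, 7 CpGs from 900 to 1000 bp averaged 22.9% and 44.5%, with XX the lower library on the forward strand and not on most of the reverse-strand CpGs. Further into the gene, 2 annotated starts without a RefSeq start were higher in both libraries. The one at 62880014, of a protein-coding transcript, had 16 CpGs at 20.7% in XX and 32.6% in XO, and its difference of -11.9 points was -17.5 on the reverse and -2.62 on the forward strand. The one at 62865304, of a transcript without a coding sequence, had 15 CpGs at 34.2% and 43.1%, -15.6 points on the reverse and -1.20 on the forward strand.

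Tet2 (chr3:133463679-133545139, reverse strand) was the RefSeq start with the highest XX minus XO difference. Its region (chr3:133543286-133546139) had 87 CpGs at 5.42% in XX and 2.05% in XO, 3.36 points apart, with the same sign on both strands (1.38 forward, 4.98 reverse). Within it, 36 CpGs were at 0% in both libraries. The starts of its later transcripts had no listed CpG. Tet3 (chr6:83362373-83459084, reverse strand) has 2 RefSeq starts. That of variant 1, at 83456392, had 109 CpGs at 3.27% in XX and 8.15% in XO, a difference of -4.88 points (-1.73 forward, -7.86 reverse). That of variant 2 (chr6:83440632-83442678) had 77 CpGs at 4.75% and 4.56%. The first start that GENCODE gives for Tet3, at 83459084, had 4 CpGs at 7.75% in XX and 29.8% in XO. Both RefSeq starts were thus under 10% in either library.

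Zfp57 (chr17:37001163-37010635, forward strand) has its starts close together in a single region (chr17:37000163-37005603), and the 28 CpGs listed there averaged 10.1% in XX and 12.9% in XO. The difference of -2.75 points was 2.57 on the forward strand and -7.35 on the reverse strand. Trim28 (chr7:12999114-13031035, forward strand) is a special case, since GENCODE draws 1 transcript of it far upstream of its RefSeq start at 13024152. The region of that RefSeq start is joined to those of shorter transcripts and covers the rest of the gene (chr7:13023152-13031372). Its 28 listed CpGs form a single run in a coding exon at chr7:13024706-13024829, 554 to 677 bp into the gene, and none lies at the start itself. They averaged 16.9% in XX and 16.2% in XO. The strands disagreed, with XX 12.6 points higher on the reverse strand and XX minus XO at -9.63 points on the forward strand. The 28 cytosines held 13 distinct pairs of values.

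In the gene bodies the mean over CpGs was lower in XX for all 10 genes, although for Zfp57 and Trim28 the direction depended on the strand or the summary. A body here is everything from the first start to the end of the gene outside its start windows. The median over the 10 was 27.4% in XX and 42.8% in XO, with a median difference of -14.6 points, and 7 of the 10 were at least 10 points lower in XX. This is what most genes showed, as 72.6% of the 11755 measured bodies of all genes were at least 10 points lower in XX, 0.536% at least 10 points higher and 95.3% lower by any amount, and their median difference was -15.7 points (29.0% in XX and 46.5% in XO). Among the 10, the sign was the same on both strands for 8, the exceptions being Zfp57 and Trim28. How often the strands share a sign over all genes is not given here.

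The maintenance genes were at 28.1% in XX and 49.2% in XO for Dnmt1 (80 CpGs) and at 16.3% and 29.5% for Uhrf1 (24 CpGs). In the body of Dnmt1, 72 of the 80 CpGs (90%) were lower in XX. Across the 10 bodies this share ran from 48.8% in Trim28 to 100% in Dnmt3l, and the share over all genes is not given here. Of the de novo genes, Dnmt3a was at 26.7% and 40.2% (64 CpGs) and Dnmt3b at 41.2% and 58.4% (27 CpGs). The body of Dnmt3l had 6 listed CpGs, all in the exon shown above, at 41.3% in XX and 75.1% in XO. Each of the 6 was lower in XX than in XO. The values ran from 14.8% to 55.6% in XX and from 64.7% to 82.4% in XO. How often every CpG of a body is lower in XX over all genes is not given here. The 6 CpGs lie close together and are not independent readings. The body difference of -33.8 points was the lowest of the 10 bodies and rests on the fewest CpGs.

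Among the Tet genes, Tet3 was lower in XX by the widest margin, with 124 body CpGs at 33.6% in XX and 52.6% in XO. Tet1 was at 23.6% and 30.7% (76 CpGs) and Tet2 at 23.1% and 31.7% (30 CpGs), so that both differences, -7.07 and -8.53 points, were nearer to 0 than the middle range of all bodies, which ran from -21.4 to -9.27 points. For Tet2 the median over CpGs in place of the mean gave -15.9 points. The exon of Tet3 shown above was chosen for having the lowest difference among the runs of these genes. The shared direction of its CpGs is therefore a description of a selected stretch. It had 13 listed cytosines at 31.0% in XX and 70.7% in XO. All 13 were lower in XX, from 11.4% to 51.6% against 48.6% to 100% in XO, and the difference was -36.2 points on the forward and -41.9 on the reverse strand.

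The body of Zfp57 had 8 CpGs in a coding exon, at 29.7% in XX and 45.5% in XO. Its difference of -15.8 points was 26.2 on the 3 forward cytosines and -41.0 on the 5 reverse ones, and with each stretch of identical values counted once it turned to 5.87 points, so no direction can be given for it. Trim28 had 86 body CpGs at 11.6% in XX and 14.1% in XO, but all 86 lie upstream of its RefSeq start, in the part that the long transcript adds and in which the gene Zbtb45 starts. Without those within 1 kb of a start of another gene its difference was -2.08 points, and the median over CpGs in place of the mean gave 2.08 points. Leaving out both Zfp57 and Trim28, the other 8 bodies had a median difference of -15.4 points, and 6 of the 8 were at least 10 points lower in XX.

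**Figure D4:**
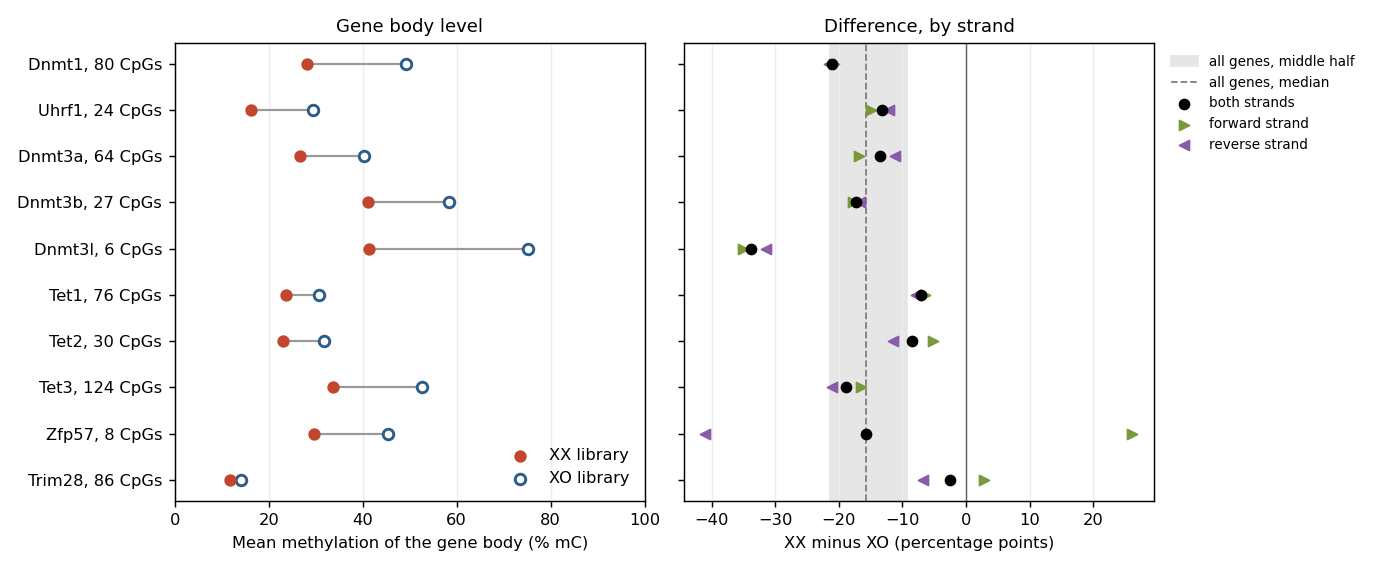
Left, mean methylation (% mC, x axis) of the bodies of the 10 genes in the XX library (filled red) and the XO library (open blue), with the number of listed CpGs. Right, the difference XX minus XO in percentage points over both strands (black) and on each strand (triangles), beside the median (dashed) and the middle 50% (grey) of all 11755 measured bodies. All 10 black points are below 0, and for Zfp57 the strands are on opposite sides of 0.

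**Figure D5:**
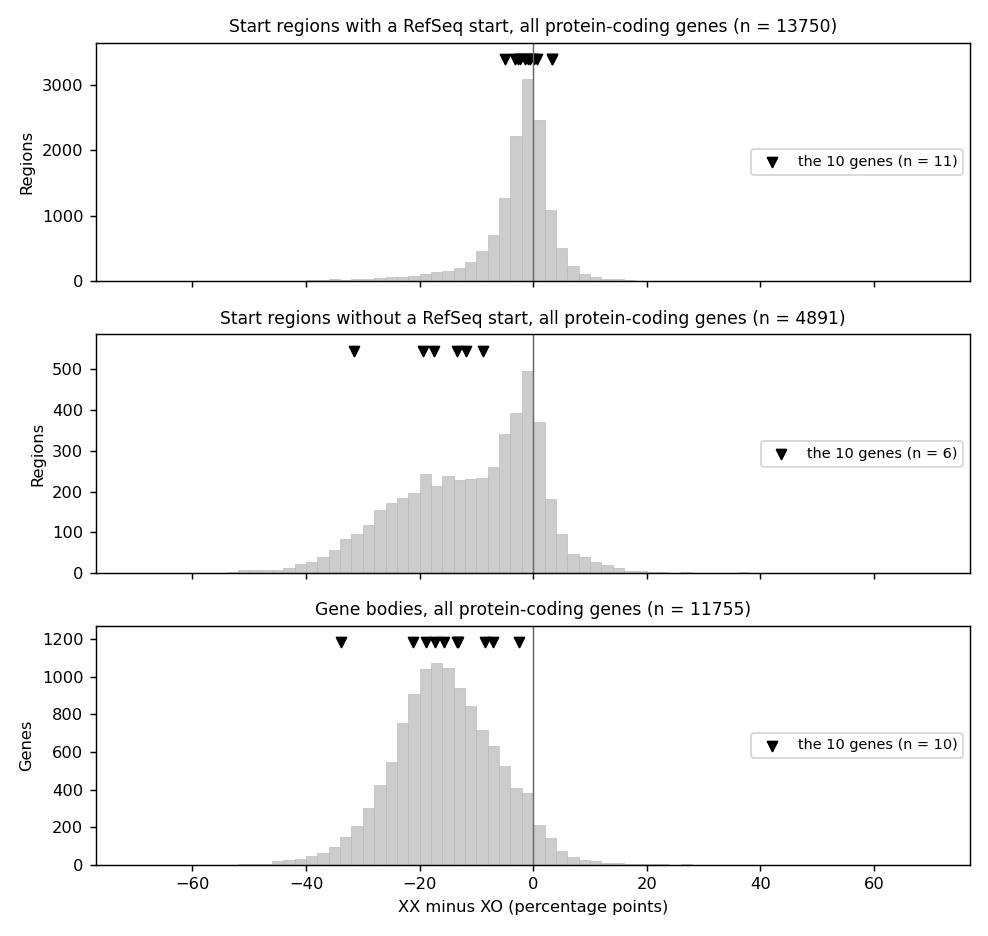
Histograms of the difference XX minus XO in percentage points (x axis, bins of 2 points) over all protein-coding genes, for start regions with a RefSeq start, start regions without one and gene bodies. The y axis counts regions or genes, and the triangles at the top of each panel are the values of the 10 genes, with 11, 6 and 10 values. The triangles lie near 0 in the top panel and mostly between -20 and -5 in the others.

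Upstream of the genes, from 5 kb to 1 kb before the first start, 3 flanks had at least 5 listed CpGs, and XX was at least 10 points lower at all 3, beside 46.8% of 4185 flanks of all genes (83.3% were lower by any amount and 1.94% at least 10 points higher). That of Uhrf1 had 5 CpGs at 33.1% in XX and 55.9% in XO, and the neighbouring gene Arrdc5 starts in it. The flank of Dnmt3l had 5 CpGs at 57.3% and 69.5%, next to a start of Aire. That of Trim28 had 8 CpGs at 35.7% and 65.0%, lies upstream of the long transcript within 1 kb of a start of Slc27a5, and 7 of its CpGs form a run of which 80.6% of the bases are repeat. The flanks of Dnmt1, Dnmt3b and Tet1 had 2 to 4 CpGs each, at 65.4% and 83.3%, 5.05% and 13.8%, and 29.9% and 37.0%, and the remaining 4 genes had none.

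The genes could also be read by runs, stretches in which listed CpGs follow each other within 100 bp. Of the 55 runs with at least 5 CpGs, XX was lower at 46, higher at 8 and equal at 1. The share of runs lower by any amount over all genes is not given here. Of the start regions of all genes 70.9% were lower in XX, and of their bodies 95.3%. The gap reached 10 points at 23 runs with XX lower and at 1 with XX higher, the Dnmt3a run described above. Over the 54935 such runs of all protein-coding genes, the shares were 41.8% and 3.15%, so that the 23 of 55 were near the background. The level went with the part of the gene. The 13 runs in untranslated exons had medians of 5.68% in XX and 6.57% in XO, the 20 runs in introns 12.5% and 17.2%, and the 20 runs in coding exons 26.4% and 46.7%. The median differences were -0.843, -5.68 and -15.8 points in that order. These counts describe the runs and were not tested.

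Shorter runs, of 1 to 4 CpGs, are left aside here, although some differed by more. The lowest run of at least 5 CpGs is given for each gene, and those of Dnmt3a, Dnmt3l, Tet3, Zfp57 and Trim28 lie in the regions given above. For Dnmt3b it was a coding exon at chr2:153676821-153676901 with 8 CpGs at 12.8% in XX and 44.2% in XO, lower on both strands (-17.3 forward, -45.6 reverse). In Dnmt1 it was a run of 5 CpGs at chr9:20909123-20909316, at 36.6% and 71.4%, whose difference was -57.5 points on the reverse strand and -0.757 on the forward strand. A longer run in a coding exon of Dnmt1, 11 CpGs at chr9:20924101-20924333, chosen after its values were seen, was at 18.7% and 48.5%. For Tet1 it was 14 CpGs in the coding exon near its start at 62880014, at 20.1% and 31.6%, with the strands in disagreement (3.57 forward, -17.5 reverse). For Tet2 it was 6 CpGs in a coding exon at chr3:133486189-133486297, at 15.2% and 23.8%, and for Uhrf1 8 CpGs in an intron at chr17:56319085-56319211, all of it repeat, at 14.9% and 23.1%. Apart from the Dnmt3a run, the highest such runs were that of Tet3, with 5 CpGs on 1 strand at 68.0% in XX and 62.0% in XO, that of the Tet2 start, 3.53 points apart, a run of 19 CpGs upstream of the RefSeq start of Trim28 at 9.67% and 6.84%, and the run at the RefSeq start of Tet1, with 39 CpGs at 9.15% and 7.32%.

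A list of 42 other genes of the pathway was read in the same way. It was drawn up with earlier results of these data known, so its counts are a description. At least 5 CpGs were listed in 54 start regions of 38 of the genes. XX was at least 10 points lower at 13 regions (24.1%, beside 20.1% over all genes) and at least 10 points higher at 3 (all genes, 1.66%). Among the 39 regions with a RefSeq start, 3 passed 10 points with XX the lower library (all genes, 10.1%) and 2 with XX the higher (all genes, 1.64%). Of the 15 without one, 10 were at least 10 points lower, beside 48.1% over all genes.

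Of the 3 lower and 2 higher regions with a RefSeq start, 4 belonged to genes of oxidation and base excision, 2 lower and 2 higher. That group held 10 of the 39 regions with a RefSeq start. Parp1, which binds DNA breaks and aids base excision repair, had 19 start CpGs at 3.31% in XX and 20.97% in XO, lower on both strands (-20.9 forward, -13.2 reverse). Ogt, an X-linked gene whose glycosyltransferase binds Tet proteins, had 8 CpGs at 29.3% and 41.7%, with -32.4 points on the forward and 20.96 on the reverse strand. Tdg, the glycosylase that removes oxidised methylcytosine, was higher in XX at its RefSeq start, with 41 CpGs at 20.95% in XX and 9.70% in XO (7.49 points forward, 12.6 reverse). Apex1, the endonuclease that acts after it, had 30 CpGs at 17.5% and 5.76% (16.0 forward, 6.15 reverse), which held 9 distinct pairs of values. Mtr, the methionine synthase of the methyl donor cycle, had 42 CpGs at 13.8% and 29.3%. The signs at these repair genes were thus mixed.

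The regions without a RefSeq start that were at least 10 points lower in XX lay in Usp7 (26.3% in XX and 46.2% in XO) and Cdca7 (22.4% and 32.4%) among the partners of maintenance methylation, and in Setd2 (37.5% and 60.5%), Kdm1b (14.3% and 36.4%) and Kmt2b (23.0% and 55.5%, and 41.1% and 64.3% at another start) among the histone modifiers that steer de novo methylation. Others were a later start of Tdg (26.0% and 38.6%), Parp1 (71.8% and 89.1%, and 42.5% and 62.3%) and Idh2 (15.4% and 41.2%). All these regions were lower in XX on both strands, but some rest on few CpGs or mainly on 1 strand. Usp7 and Setd2 had 5 CpGs each, and Idh2 and the first Parp1 region 6 each. By strand, the differences were -7.55 points forward and -38.4 reverse in Usp7, and -6.88 and -33.8 in Setd2. They were -26.6 and -2.91 in Cdca7, and -34.0 and -0.713 in that Parp1 region. Ehmt2, a histone H3 methyltransferase gene, had 5 CpGs at 21.3% and 11.3%. None of the 5 measured start regions of the imprint protection genes on the list passed 10 points. All 5 hold a RefSeq start, and over all genes 10.1% of such regions were at least 10 points lower in XX and 1.64% at least 10 points higher. In 26 measured bodies of the list, XX was lower at 24 and at least 10 points lower at 19 (all genes, 95.3% and 72.6%), with a median difference of -13.9 points, close to that of all genes. The 2 exceptions, named after their values were seen, were Prdm14 (22.2% in XX and 21.7% in XO) and Gadd45a (1.09% and 0%).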

How the data were processed

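Per the submitters' processing notes, base calls were converted with bcl2fastq and bisulfite reads were handled with Bismark, with mm10 as the genome build. Versions, trimming and the coverage minimum are not given in the sources used here. The authors deposited the percent methylation of each CpG cytosine in the XX and the XO library, each strand on its own row, and 0 further columns of sample values. Depth is unknown, so no binomial interval or limit was computed. Each cytosine counted equally: a CpG read by few reads weighs as much as one read by many, and PCR duplicates cannot be seen.

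Cytosines were assigned to transcripts of GENCODE M21 on GRCm38 (the build also called mm10), and RefSeq mRNA starts within 100 bp of a GENCODE start were marked. Start regions, bodies and flanks had the mean of their CpGs, with at least 5 CpGs required, and 10 points was the size used for counts. The same was computed over all protein-coding genes. Sequences are RefSeq's GRCm38. The members, the pathway list and the rules were chosen with earlier results of these data known. All 10 members are named, with their lowest run and, where a run was higher in XX, their highest run of at least 5 CpGs, and of the 42 pathway genes those past 10 points at a start region. Another 12 settings, and 1 chosen after seeing the data (stretches of identical values counted once), varied the strand, window, CpG minimum, threshold, summary and CpGs used. The scripts were tested on simulated data. Python 3.11.15, numpy 2.4.6, pandas 2.3.3 and matplotlib 3.10.9 were used.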

Additional observations from a re-analysis of the deposited data

How the results depend on the processing

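No paired analysis was possible because there was 1 library per karyotype, and no library could be left out. Of 66 summary values recomputed under the alternatives, 51 stayed within 1.5 times the reported value, 15 moved further and 0 changed direction. The median start difference over the 10 genes (-2.75 points) became -1.73 on the forward strand alone, -1.60 on the reverse strand alone, -0.560 with medians over CpGs and -5.48 with windows of 2 kb. The 5 member starts at least 10 points lower in XX became 1 on the forward strand, 3 with at least 10 CpGs, 3 with windows of 500 bp and 1 at 20 points, and 1 start, that of Trim28, was at least 10 points higher on the reverse strand. The 13 such starts of pathway genes became 7 on the forward strand, 6 on the reverse strand, 7 with at least 10 CpGs, 6 with protein-coding transcripts only, 5 at 20 points and 25 at 5 points. Of 283 single values recomputed, 255 moved by less than 5 points and 26 by more, mostly under a single strand or the median over CpGs. Changes of direction were counted only for single values of at least 10 points. Among these only the body of Zfp57 changed direction, to 26.2 points on the forward strand and 5.87 with stretches of identical values counted once. Smaller values changed sign as well and were not counted, such as the RefSeq start of Trim28, from 0.699 to -9.63 points on the forward strand. The causes were not tested, apart from the fewer CpGs that single strands and higher minimums leave by construction. The median over upstream flanks could not be computed on single strands or with at least 10 CpGs, as too few CpGs were left. The median body difference of the 10 genes moved by less than 1.5 times in each of its alternatives. Unknown depth, 1 library per karyotype and values shared by neighbouring cytosines limit every statement above.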
